A study of Saccharomyces cerevisiae and Saccharomyces cerevisiae x Saccharomyces paradoxus and Saccharomyces cerevisiae x Saccharomyces mikatae with 18 samples.

Results

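The genes described here are the yeast histone genes, chosen by systematic name: HTA1, HTA2, HTB1, HTB2, HHT1, HHT2, HHF1 and HHF2 for the core histones, HTZ1 for the variant H2A.Z and HHO1 for the linker histone H1. Of these 10 genes, 8 were listed among the 4730 genes of the series, and HHT2 and HHF2 were not analysed here. Expression was measured by 3′-end RNA-seq, which counts fragments that end at the poly-A tail, in 12 libraries of purebred diploids (homozygotes) and 6 libraries of interspecific hybrids, in which each read was assigned to 1 of the 2 parental alleles. The tested homozygotes were S. paradoxus CBS 432, S. mikatae IFO 1815 and S. bayanus CBS 7001 with 2 libraries each, and the reference was S. cerevisiae YHL068 with 6 libraries, a diploid heterozygous for deletions of LYS2, LEU2, HIS3, MET15 and URA3. The hybrids had 2 libraries each. YYM014 carried a S. paradoxus genome with ade2 and ura3 mutations, YYM030 a S. mikatae genome with a his3 deletion and YYM015 a S. bayanus genome with his3 and ura3 mutations, and in all of them the other genome came from S. cerevisiae BY4716, in which LYS2 is deleted. Homozygotes and hybrids alike were cultured in YPD, a rich glucose medium, at 25 °C and harvested in log phase at an OD600 of 0.65 to 0.75. Each species was represented by 1 strain, so that species and strain cannot be told apart.

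Histones package DNA: a nucleosome is built from the core histones H2A, H2B, H3 and H4, H2A.Z replaces H2A at many promoters, and H1 binds the linker DNA between nucleosomes. In S. cerevisiae each core histone is encoded by a pair of genes, and the core genes lie in divergent couples, H2A beside H2B and H3 beside H4, that are transcribed in S phase from a shared promoter. The activator Spt10 binds a conserved upstream element in these promoters, Spt21 acts with it, and the HIR complex with Asf1 and Rtt106 represses most of the couples outside S phase. Unlike animal histone mRNAs, those of yeast end in a poly-A tail, so that a 3′-end protocol captures them.

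The shared promoters are shown because the element in them is what the core histone genes have in common and the variant and linker genes lack. The element was searched as TTCC, then any 6 bases, then TTCNC, on both strands within 500 bases before each start codon, and no match shown overlaps another. The sequences below are the + strand of the S. cerevisiae R64 assembly from RefSeq, 5′ to 3′, with matches in capitals, at chrIV:915094-915171, chrII:236085-236144, chrII:255921-255980 and chrXIV:576323-576382 in that order.
HTB1-HTA1 promoter: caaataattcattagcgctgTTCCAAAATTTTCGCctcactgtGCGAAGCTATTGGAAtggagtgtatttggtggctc
HTA2-HTB2 promoter: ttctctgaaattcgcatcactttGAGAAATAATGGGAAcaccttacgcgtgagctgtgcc
HHF1-HHT1 promoter: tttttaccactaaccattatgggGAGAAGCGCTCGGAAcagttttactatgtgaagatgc
HHT2-HHF2 promoter: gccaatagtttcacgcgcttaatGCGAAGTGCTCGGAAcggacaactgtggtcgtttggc
HTA1 and HTB1 had 2 matches each, the other 6 core genes 1 each, and HTZ1 and HHO1 had 0. Among 6006 windows of the same length, 2.9% held at least 1 match and 0.13% held 2 or more. These letters are from S. cerevisiae alone; the promoters of the other species were not used here.

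In S. cerevisiae R64 the gene copies can be told apart by their ends at the full read length. Shorter reads left by poly-A trimming, and the genomes of the other species, were not checked. In R64, the coding sequences of HTA1 (YDR225W, chromosome IV, 915530 to 915928, + strand) and HTA2 (YBL003C, chromosome II, 235394 to 235792, − strand) were 93.7% identical, and those of HTB1 (YDR224C, chromosome IV, 914317 to 914712, − strand) and HTB2 (YBL002W, chromosome II, 236492 to 236887, + strand) 87.9%. HHT1 (YBR010W, chromosome II, 256331 to 256741, + strand) was 93.2% identical to HHT2, and HHF1 (YBR009C, chromosome II, 255373 to 255684, − strand) 97.4% identical to HHF2. In the 200 bases after the stop codon the identity of the copies was 28.5 to 35.0%. Every stretch of 36 bases, the read length, in the 500 bases after the stop codon of each of the 10 genes occurred once in R64, whereas within the coding sequence the share that occurred once was 66.4% in HHF1, 79.3% in HHT1 and 90.1% in HTA1 and HTA2. The single-copy genes were HTZ1 (YOL012C, chromosome XV, 303579 to 303983, − strand) and HHO1 (YPL127C, chromosome XVI, 308828 to 309604, − strand). All 10 coding sequences consist of 1 exon.

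The values below are the deposited read sums divided by a factor that sets the upper quartile equal (scaled values). Each homozygote library and each allele of a hybrid library had its own factor. Column totals lay between 4760197 and 6883279 in homozygotes and between 2255430 and 3336994 per allele, and the 8 genes took 0.398 to 1.02% of them in homozygotes and 0.362 to 0.759% per allele. LYS2 checked the hybrid labels: its deposited sum was 53 to 132 on the other allele, and 0 or 1 on the S. cerevisiae allele. Log2 ratios are of the scaled value plus 1, with the standard error from limma fitted to all homozygotes or all alleles, and a gene was called at a Benjamini-Hochberg adjusted p under 0.05 over all genes tested. In each comparison the S. cerevisiae libraries were the 2 whose reads had been mapped against the same pair of genomes. In the bulk cultures of homozygotes, fewer cells in S phase and less histone mRNA per cell cannot be told apart, whereas both alleles of a hybrid were read from the same cells.

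**Figure D1:**
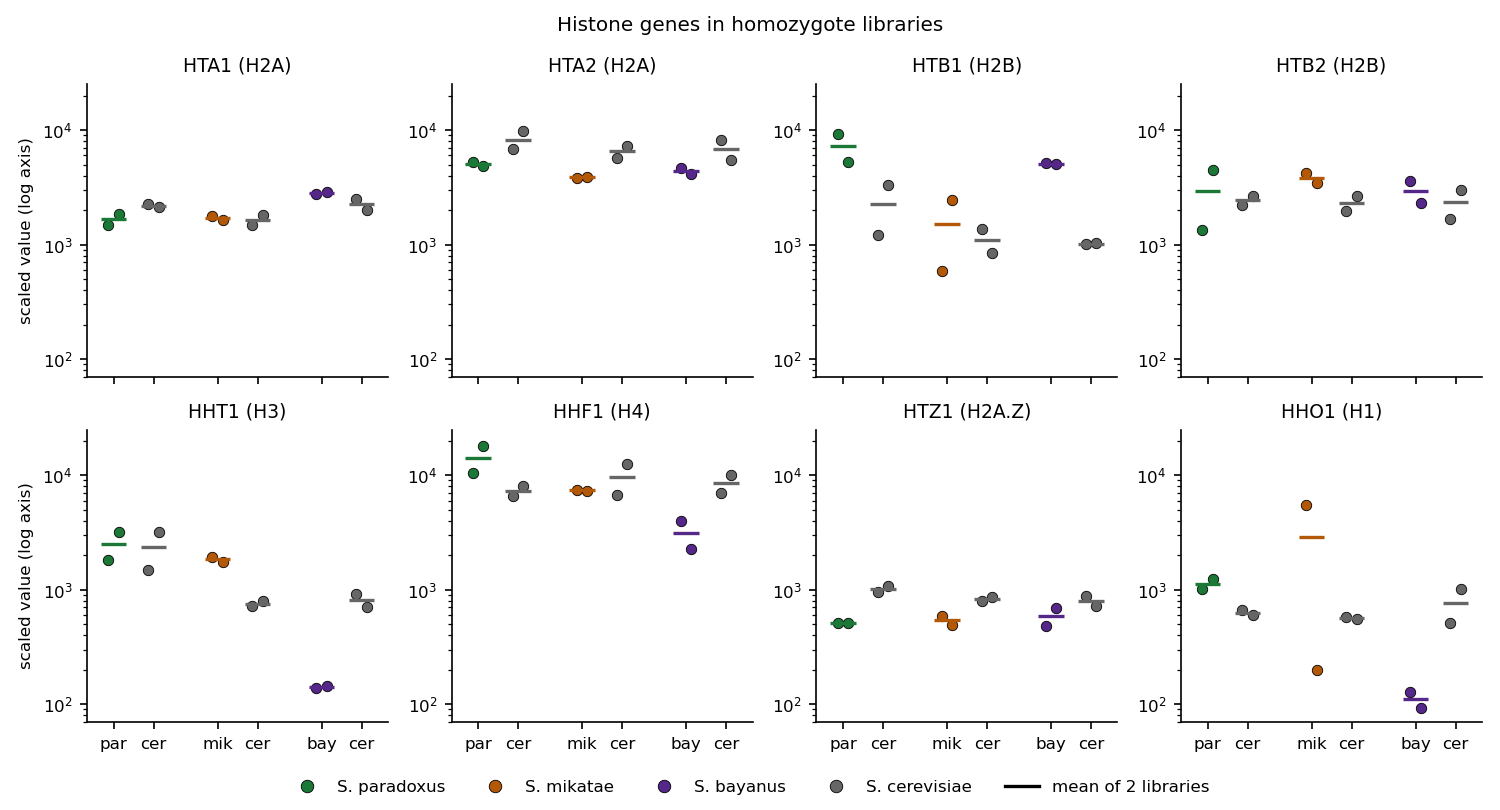
Scaled values (log axis) of the 8 histone genes in homozygote libraries, with 1 point per library and a line at the mean of 2 libraries; par, mik, bay and cer stand for S. paradoxus, S. mikatae, S. bayanus and S. cerevisiae, and each species stands left of the S. cerevisiae libraries mapped against the same genomes. HHT1 in S. bayanus (140 and 145) lies below all other libraries, and the S. mikatae libraries differ by 27.8 times in HHO1.

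The H3 gene HHT1 was low in S. bayanus, both in the homozygote and on the allele in the hybrid, and it was the histone gene with the steadiest call. Its scaled values were 140 and 145 in S. bayanus homozygotes, against 908 and 711 in S. cerevisiae homozygotes, a log2 ratio of -2.49 ± 0.39 (SE) or 5.63 times lower (limma adjusted p = 0.0018). On the alleles of the hybrid they were 112 and 144 for S. bayanus, against 781 and 736 for S. cerevisiae, a log2 ratio of -2.57 ± 0.28 or 5.93 times lower (limma adjusted p = 0.00036). The 4 S. bayanus values, which rest on deposited sums of 82 to 239, lay below all 12 S. cerevisiae values, of which the lowest was 711. With each library left out in turn the log2 ratio stayed at -2.67 to -2.32 in homozygotes and -2.79 to -2.35 between alleles. Both calls held under every other setting tried. Homozygotes and alleles were mapped to the same S. bayanus genome. Whether reads of HHT1 or of other histone genes were lost there in mapping was not tested.

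The same gene was high in S. mikatae homozygotes. HHT1 had 1923 and 1761 there, against 714 and 800 in S. cerevisiae homozygotes, a log2 ratio of 1.28 ± 0.39 or 2.43 times higher (limma adjusted p = 0.038). On the S. mikatae allele it had 1574 and 1453, against 905 and 1138 on the S. cerevisiae allele, with no overlap and a log2 ratio of 0.57 ± 0.28 that did not pass (limma adjusted p = 0.16). The homozygote call was lost with any 1 of its 4 libraries left out (limma adjusted p = 0.10 to 0.14), and against all 6 S. cerevisiae homozygotes the log2 ratio was 0.74 (limma adjusted p = 0.30). In S. paradoxus the groups overlapped in both settings: HHT1 had 1819 and 3192 in S. paradoxus homozygotes against 1500 and 3190 in S. cerevisiae homozygotes, and 1627 and 1436 on the S. paradoxus allele against 1056 and 1690 on the S. cerevisiae allele.

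The H4 gene HHF1, which shares its promoter with HHT1, was also low in S. bayanus. It had 3993 and 2246 in S. bayanus homozygotes, against 6966 and 10051 in S. cerevisiae homozygotes, a log2 ratio of -1.48 ± 0.43 or 2.79 times lower (limma adjusted p = 0.026). Its alleles had 3346 and 2230 for S. bayanus, against 9322 and 8453 for S. cerevisiae, a log2 ratio of -1.70 ± 0.42 or 3.25 times lower (limma adjusted p = 0.015). No S. bayanus value reached the lowest S. cerevisiae value in either setting. With 1 library left out the adjusted p in limma ranged from 0.031 to 0.15 in homozygotes, where the call held only without S. bayanus replicate 1 and was lost in a fit of S. bayanus and S. cerevisiae alone (0.059), and it was 0.11 and 0.19 for the alleles without hybrid replicate 1 and without replicate 2.

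HHF1 in the other species depended on the setting. On the S. mikatae allele it had 2871 and 4667, against 15343 and 6521 on the S. cerevisiae allele, a log2 ratio of -1.45 ± 0.42 or 2.73 times lower (limma adjusted p = 0.036). With library as a block, which pairs the alleles measured in 1 library, the adjusted p was 0.085, in a fit of this hybrid alone 0.145 and with 1 scaling factor for both alleles 0.056, and without hybrid replicate 1, which held the S. cerevisiae value of 15343, the log2 ratio was -0.48 (limma adjusted p = 0.47). In S. mikatae homozygotes the values of 7493 and 7285 lay among those of S. cerevisiae homozygotes, 6737 and 12623. S. paradoxus homozygotes had 10538 and 17890, against 6578 and 8030 in S. cerevisiae homozygotes, with no overlap but a log2 ratio of 0.92 ± 0.43 that did not pass (limma adjusted p = 0.14). The S. paradoxus allele had 6425 and 5643, against 7361 and 7024 on the S. cerevisiae allele (log2 ratio -0.26 ± 0.42, limma adjusted p = 0.72).

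**Figure D2:**
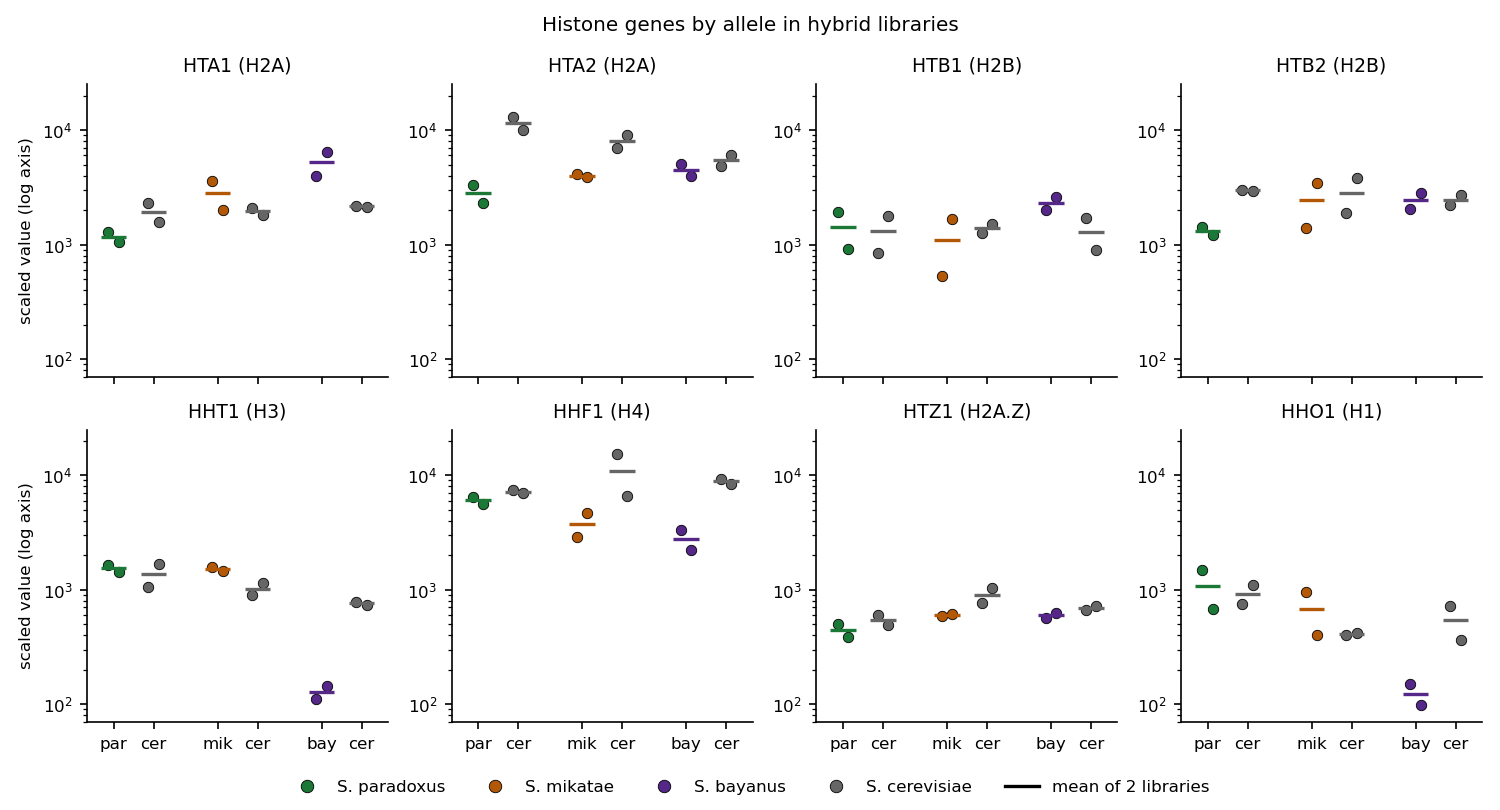
Scaled values (log axis) of the 8 histone genes by allele in hybrid libraries, drawn as for the homozygotes, with 1 point per library and allele and a line at the mean of 2 libraries; each species' allele stands left of the S. cerevisiae allele of the same hybrid. HTA2 on the S. paradoxus allele (3324 and 2288) lies below the S. cerevisiae allele (12930 and 10074), and HHT1 on the S. bayanus allele (112 and 144) below every other allele value of that gene.

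The H2A gene HTA2 was lower on the other species' allele in the hybrids with S. paradoxus and S. mikatae. It had 3324 and 2288 on the S. paradoxus allele, against 12930 and 10074 on the S. cerevisiae allele, a log2 ratio of -2.05 ± 0.30 or 4.14 times lower (limma adjusted p = 0.0031, and 0.019 with library as a block). On the S. mikatae allele it had 4117 and 3865, against 6907 and 9057 on the S. cerevisiae allele, a log2 ratio of -0.99 ± 0.30 or 1.98 times lower (limma adjusted p = 0.039). The S. mikatae call was lost with library as a block (limma adjusted p = 0.059), without either hybrid library (0.13 to 0.32), in a fit of this hybrid alone (0.087) and with 1 scaling factor for both alleles (0.086). The S. paradoxus call held with either library left out, but not in a fit of this hybrid alone (limma adjusted p = 0.059). The S. bayanus allele, with 5076 and 3954, overlapped the S. cerevisiae allele, with 4837 and 6074.

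In homozygotes HTA2 lay below S. cerevisiae in all 3 species without passing the test against the libraries mapped with the same genomes. S. paradoxus had 5234 and 4813, against 6810 and 9721 in S. cerevisiae (log2 ratio -0.70 ± 0.30, limma adjusted p = 0.11). S. mikatae had 3852 and 3911, against 5701 and 7308 (log2 ratio -0.73 ± 0.30, limma adjusted p = 0.092), and it passed against all 6 S. cerevisiae homozygotes, at -0.86 (0.033). S. bayanus had 4674 and 4126, against 8153 and 5523 (log2 ratio -0.61 ± 0.30, limma adjusted p = 0.14). The 2 groups did not overlap in any of these comparisons.

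HTA1, the other H2A gene, was higher on the S. bayanus allele. It had 3954 and 6481 there, against 2189 and 2133 on the S. cerevisiae allele, a log2 ratio of 1.23 ± 0.36 or 2.34 times higher (limma adjusted p = 0.030, and 0.034 with library as a block). The call was lost without hybrid replicate 1 (limma adjusted p = 0.095), without replicate 2 (0.32) and with 1 scaling factor for both alleles (0.053). In S. bayanus homozygotes HTA1 had 2768 and 2870, against 2508 and 2022 in S. cerevisiae homozygotes (log2 ratio 0.32 ± 0.24, limma adjusted p = 0.32). S. paradoxus values were 1496 and 1838 in homozygotes and 1283 and 1063 on the allele, each pair below its S. cerevisiae counterpart, 2249 and 2136 in homozygotes and 2287 and 1577 on the allele, and neither ratio passed (limma adjusted p = 0.24 and 0.21). S. mikatae overlapped S. cerevisiae in both settings.

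The H2A pair can be described as the share of HTA1 in the sum of HTA1 and HTA2, which does not depend on scaling between libraries. Whether reads of both copies were kept alike in each species was not tested. HTA1 made up 37.2 to 62.1% in the 4 S. bayanus columns, 29.4 to 46.7% in the 4 of S. mikatae and 22.2 to 31.7% in the 4 of S. paradoxus, against 13.5 to 31.2% (median 21.9%) in the 12 of S. cerevisiae. Within the S. paradoxus hybrid the share was 27.8 and 31.7% for the S. paradoxus allele, against 15.03 and 13.5% for the S. cerevisiae allele. Within the S. bayanus hybrid it was 43.8 and 62.1% for the S. bayanus allele, against 31.2 and 26.0% for the S. cerevisiae allele. These shares are a description and were not tested.

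**Figure D3:**
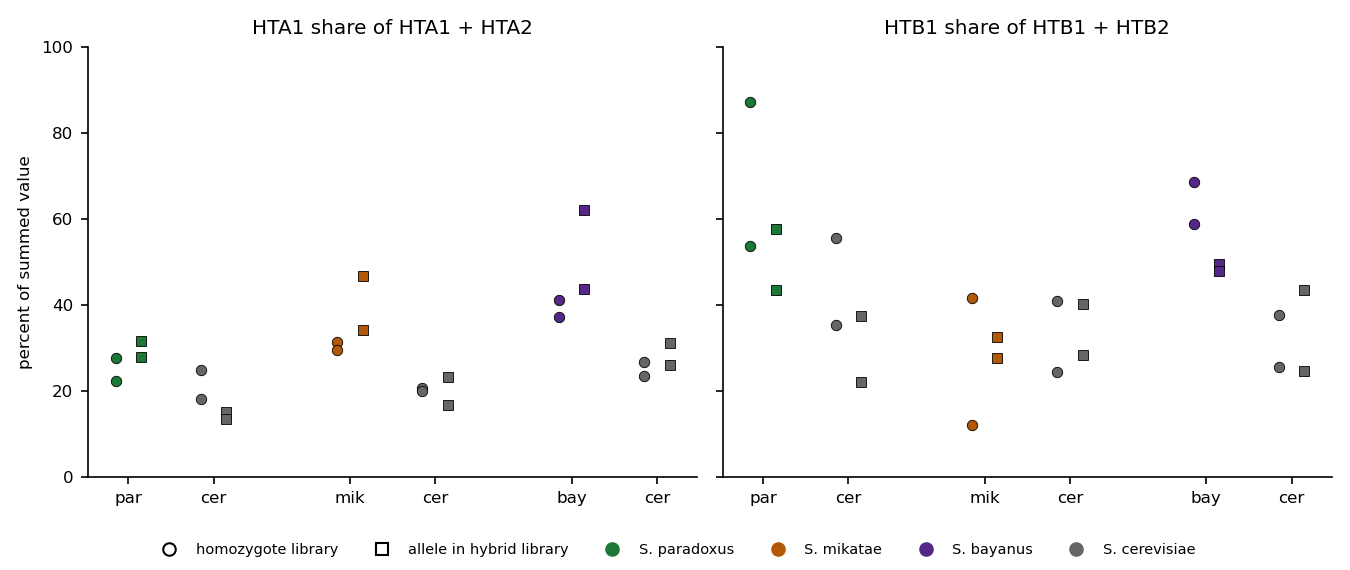
Share (percent) of HTA1 in HTA1 plus HTA2 (left) and of HTB1 in HTB1 plus HTB2 (right), with 1 point per homozygote library (circles) or hybrid library and allele (squares); par, mik, bay and cer stand for the species as above. For HTA1 all 4 S. bayanus points (37.2 to 62.1%) lie above all 12 S. cerevisiae points (13.5 to 31.2%), while for HTB1 the S. paradoxus points spread from 43.4 to 87.3%.

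Of the H2B genes, HTB1 was high in S. bayanus homozygotes. It had 5173 and 5033 there, against 1017 and 1024 in S. cerevisiae homozygotes, a log2 ratio of 2.32 ± 0.69 or 5.00 times higher (limma adjusted p = 0.028). With any 1 of these 4 libraries left out the log2 ratio stayed at 2.30 to 2.34, but the adjusted p in limma was 0.092 to 0.10. The S. bayanus allele had 2009 and 2584, against 1695 and 889 on the S. cerevisiae allele, with no overlap and a log2 ratio of 0.89 ± 0.62 that did not pass (limma adjusted p = 0.30). S. paradoxus homozygotes had 9274 and 5231, against 1209 and 3339 in S. cerevisiae homozygotes, a log2 ratio of 1.79 ± 0.69 (limma adjusted p = 0.081) that passed only against all 6 S. cerevisiae homozygotes, at 2.42 (limma adjusted p = 0.012). On the S. paradoxus allele HTB1 had 1931 and 923, overlapping the S. cerevisiae allele, with 848 and 1772. S. mikatae libraries disagreed with each other, with 590 and 2442 in homozygotes against 1364 and 847 in S. cerevisiae homozygotes, and 534 and 1674 on the allele against 1263 and 1506 on the S. cerevisiae allele.

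HTB2, the other H2B gene, passed the test in none of the 6 comparisons fitted without a block, and the S. paradoxus allele came nearest. The S. paradoxus allele had 1415 and 1204, against 2994 and 2958 on the S. cerevisiae allele, a log2 ratio of -1.19 ± 0.47 or 2.28 times lower (limma adjusted p = 0.12), and it passed with library as a block (limma adjusted p = 0.034). S. mikatae homozygotes had 4257 and 3445, against 1966 and 2640 in S. cerevisiae homozygotes (log2 ratio 0.75 ± 0.55, limma adjusted p = 0.33). HTB1 made up 47.9 to 68.6% of HTB1 plus HTB2 in S. bayanus, 12.2 to 41.5% in S. mikatae and 43.4 to 87.3% in S. paradoxus, against 22.1 to 55.6% in S. cerevisiae, all over both settings.

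HTZ1, the H2A.Z gene, was lower in S. paradoxus homozygotes. It had 515 and 514 there, against 949 and 1077 in S. cerevisiae homozygotes, a log2 ratio of -0.97 ± 0.25 or 1.96 times lower (limma adjusted p = 0.021). The S. paradoxus allele had 501 and 386, overlapping the S. cerevisiae allele with 604 and 492 (log2 ratio -0.31 ± 0.25, limma adjusted p = 0.43). With any 1 of the 4 homozygote libraries left out the adjusted p in limma was 0.057 to 0.11, and in a fit of these species alone it was 0.066. S. mikatae had 588 and 493.3 in homozygotes against 801 and 860 in S. cerevisiae homozygotes, and 585 and 610 on the allele against 771 and 1040 on the S. cerevisiae allele, without overlap and without a call (limma adjusted p = 0.095 and 0.12). Against all 6 S. cerevisiae homozygotes the S. mikatae homozygotes passed, at -0.69 (limma adjusted p = 0.042). S. bayanus had 486 and 685 in homozygotes against 872 and 713, and 562 and 628 on the allele against 667 and 716 on the S. cerevisiae allele. In all 6 comparisons the log2 ratio of HTZ1 was below 0, from -0.97 to -0.22.

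HHO1, the H1 gene, was low in S. bayanus. On the S. bayanus allele it had 150 and 97.5, against 726 and 365 on the S. cerevisiae allele, a log2 ratio of -2.08 ± 0.54 or 4.23 times lower (limma adjusted p = 0.019, and 0.035 with library as a block). The call was lost without hybrid replicate 1 (limma adjusted p = 0.15) and without replicate 2 (0.099). S. bayanus homozygotes had 129 and 92.0, against 513 and 1019 in S. cerevisiae homozygotes, without overlap and with a log2 ratio of -2.72 ± 1.20 that did not pass (limma adjusted p = 0.11). It passed in a fit of these species alone (limma adjusted p = 0.019) and against all 6 S. cerevisiae homozygotes, at -2.53 (0.041).

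The wide error of HHO1 in homozygotes came with the S. mikatae libraries, which had 5531 in replicate 1 and 198 in replicate 2, against 576 and 552 in S. cerevisiae homozygotes. Without replicate 1 the S. mikatae log2 ratio was -1.51 (limma adjusted p = 0.045), without replicate 2 it was 3.29 (limma adjusted p = 0.0030), and with both it was 0.89 ± 1.20 (limma adjusted p = 0.61). The S. mikatae allele had 962 and 404, overlapping the S. cerevisiae allele with 399 and 417. S. paradoxus homozygotes had 1011 and 1243, against 661 and 598 in S. cerevisiae homozygotes (log2 ratio 0.83 ± 1.20, limma adjusted p = 0.64), and the S. paradoxus allele had 1471 and 678, against 746 and 1089 on the S. cerevisiae allele.

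Counted over the 8 genes, S. paradoxus homozygotes had 0 higher and 1 lower call (HTZ1), against 29.2% of all genes called in limma, 12% higher and 17.1% lower; of all 1342 calls 41.2% were higher, and 51.5% under median-of-ratios scaling. S. mikatae homozygotes had 1 higher (HHT1) and 0 lower, against 29.6%, 12.5% higher and 17.1% lower. S. bayanus homozygotes had 1 higher (HTB1) and 2 lower (HHT1 and HHF1), against 37.3%, 19.1% higher and 18.1% lower. The S. paradoxus allele had 0 higher and 1 lower call (HTA2), against 17% of all genes, 8.96% higher and 8% lower. The S. mikatae allele had 0 higher and 2 lower calls (HTA2 and HHF1), against 26.5%, 12.8% higher and 13.7% lower. The S. bayanus allele had 1 higher (HTA1) and 3 lower calls (HHT1, HHF1 and HHO1), against 33.8%, 17.2% higher and 16.5% lower. The median log2 ratio of the 8 genes was 0.08 in S. paradoxus, 0.10 in S. mikatae and -0.53 in S. bayanus homozygotes, beside -0.20, -0.14 and 0.01 over all genes in the same order. For the alleles it was -0.28, -0.41 and -0.25, beside 0.01, -0.04 and 0.03. The groups did not overlap in 6 of the 8 genes in S. paradoxus homozygotes, 4 in S. mikatae and 7 in S. bayanus, of which 3, 2 and 2 lay above S. cerevisiae, against 27.9, 30.5 and 36.7% of all genes above and 39.2, 38.2 and 36.6% below. Among alleles the non-overlapping counts were 0 above and 4 below, 1 above and 3 below, and 2 above and 4 below, against 31, 31.6 and 37.8% of all genes above and 29.7, 35.2 and 35.7% below.

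**Figure D4:**
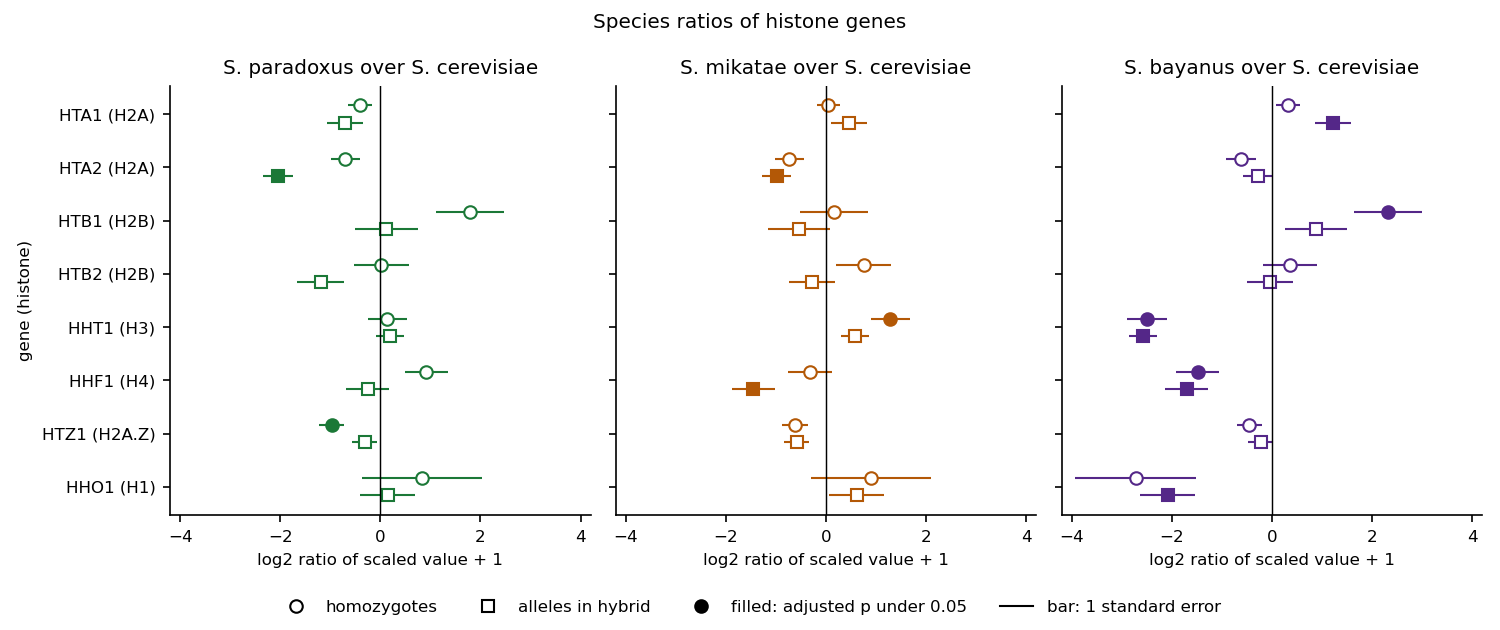
Log2 ratios of each species over S. cerevisiae (horizontal axis) for the 8 histone genes, with circles for homozygotes, squares for hybrid alleles, filled symbols for an adjusted p under 0.05 and bars for 1 standard error. HHT1 in S. bayanus has -2.49 in homozygotes and -2.57 between alleles, while HTA2 in S. paradoxus has -0.70 in homozygotes and -2.05 between alleles.

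In the study's terms, the allele ratio in a hybrid measures differences that act in cis, and the homozygote ratio those that act in cis and in trans together. The difference of the 2 ratios was called for 0 of the 8 genes in S. paradoxus, against 7.13% of all genes, 2.54% higher and 4.58% lower. It was called for 0 in S. mikatae, against 2.17%, 0.956% higher and 1.22% lower, and for 0 in S. bayanus, against 2.8%, 1.96% higher and 0.847% lower. Under median-of-ratios scaling the higher share of all such calls was 53% rather than 35.7% in S. paradoxus and 56.9% rather than 44% in S. mikatae. At an unadjusted p under 0.05 in limma the counts were 1, 0 and 1 of 8, beside 21.9, 14.8 and 15.2% of all genes. These were HTA2 in S. paradoxus, with a difference of 1.35 ± 0.40 (limma adjusted p = 0.054, and 0.030 under median-of-ratios scaling), and HTA1 in S. bayanus, with -0.90 ± 0.42 (limma adjusted p = 0.33). For HHT1 and HHF1 in S. bayanus the differences were 0.08 ± 0.49 and 0.22 ± 0.62.

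Across species, the S. bayanus ratio of HHT1 differed from those of the others. The homozygote ratio minus that of S. paradoxus was -2.63 ± 0.56 (limma adjusted p = 0.0092), and minus that of S. mikatae -3.78 ± 0.56 (0.0028). The allele ratio minus that of S. paradoxus was -2.76 ± 0.40 (limma adjusted p = 0.0034), and minus that of S. mikatae -3.14 ± 0.40 (0.0018). For HHF1 the homozygote ratio of S. bayanus minus that of S. paradoxus was -2.40 ± 0.61 (limma adjusted p = 0.020). These contrasts were added after the values were seen.

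The spread between the 2 libraries of a group differed among the histone genes. Over the 12 groups the median fold between libraries was 1.16 for HTZ1, 1.19 for HHT1, 1.22 for HTA1, 1.28 for HTA2, 1.36 for HTB2, 1.47 for HHF1, 1.496 for HHO1 and 1.84 for HTB1, beside a median of 1.27 over the 3582 genes with a mean of at least 100. The widest gaps were 27.8-fold for HHO1 and 4.13-fold for HTB1, both in S. mikatae homozygotes, and in HTB1 the larger value was in replicate 2 while in HHO1 it was in replicate 1. Over the 24 columns, which share libraries and scaling, Pearson's r of log2 values was 0.62 between HHT1 and HHF1, 0.76 between HHT1 and HHO1 and 0.55 between HHF1 and HHO1. HTA1 had a negative r with these genes, -0.66 to HHT1, -0.61 to HHF1 and -0.56 to HHO1, while HTA2 and HTZ1 had 0.60. Between the couples of H2A and H2B it was 0.05 for HTA1 and HTB1 and 0.25 for HTA2 and HTB2. These r values mix differences between species with those between libraries, and no r within a species was computed. The 4 S. bayanus columns lay below all others in HHT1 (112 to 145) and HHO1 (92.0 to 150). Of 3574 other genes with a mean of at least 100, those most like the mean log2 profile of the 6 listed core genes were CIN5 (r = 0.68), SRL3 (0.66), TMH11 (0.65), YAE1 (0.64) and MAC1 (0.63).

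SPT10, the activator of the core histone promoters, was listed at 0 in both S. paradoxus homozygotes and on the S. paradoxus allele in both hybrid libraries, against 19.3 and 81.6 in S. cerevisiae homozygotes and 1.63 and 10.7 on the S. cerevisiae allele. The cause of these zeros was not tested. On the other alleles it was higher: 91.3 and 77.8 for S. mikatae against 10.3 and 8.21 for S. cerevisiae, a log2 ratio of 3.06 ± 0.69 (limma adjusted p = 0.013), and 64.2 and 117 for S. bayanus against 16.7 and 18.5 for S. cerevisiae, 2.24 ± 0.69 (limma adjusted p = 0.035). In homozygotes neither ratio passed: SPT10 had 81.0 and 195 in S. mikatae, overlapping S. cerevisiae with 133 and 30.0 (log2 ratio 0.97 ± 0.94, limma adjusted p = 0.46), and 114 and 65.4 in S. bayanus, against 63.3 and 18.6 in S. cerevisiae (1.30 ± 0.94, limma adjusted p = 0.31).

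Of 11 tested regulators of histone transcription, 0 were higher and 2 lower in S. paradoxus homozygotes, 0 and 3 in S. mikatae, and 1 and 2 in S. bayanus. Among alleles the counts were 1 higher and 1 lower, 3 and 0, and 3 and 1. The S. paradoxus counts include SPT10, with its values of 0, as a lower call in homozygotes and as the lower call on the allele. The shares called were 18.2, 27.3 and 27.3% in homozygotes and 18.2, 27.3 and 36.4% among alleles, below the shares of all genes in homozygotes and within 3 percentage points of them among alleles. RTT106, a chaperone of H3 and H4 that takes part in repressing histone genes, had 22.2 and 40.3 in S. bayanus homozygotes, against 189 and 229 in S. cerevisiae, a log2 ratio of -2.76 ± 0.34 (limma adjusted p = 0.00057). Its S. bayanus allele had 57.3 and 39.0, against 136 and 169 on the S. cerevisiae allele, -1.66 ± 0.33 (limma adjusted p = 0.0054). HIR2, a subunit of the HIR repressor, had 133 and 64.0 in S. mikatae homozygotes, against 541 and 513 in S. cerevisiae. The log2 ratio was -2.50 ± 0.52 (limma adjusted p = 0.0077), and the allele ratio of -0.56 ± 0.42 did not pass. For HIR2 the S. cerevisiae homozygotes mapped with the other pairs of genomes were lower, at 141, 294, 164 and 289. SWI6, a cofactor of the factors that drive G1/S transcription, had 1390 and 364 in S. bayanus homozygotes, against 3306 and 3355 in S. cerevisiae. The log2 ratio was -2.23 ± 0.73 (limma adjusted p = 0.042), and the allele ratio of -0.69 ± 0.66 did not pass. The S. cerevisiae homozygotes mapped with the other pairs of genomes had 295, 1338, 631 and 665 for SWI6, overlapping S. bayanus.

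Of 17 tested genes for histone chaperones, deposition and modification, 3 were higher and 0 lower in S. paradoxus homozygotes, 1 and 3 in S. mikatae, and 2 and 5 in S. bayanus; among alleles the counts were 5 and 1, 2 and 3, and 6 and 4. As shares called, these were 17.6, 23.5 and 41.2% in homozygotes, beside 29.2, 29.6 and 37.3% of all genes, and 35.3, 29.4 and 58.8% among alleles, beside 17, 26.5 and 33.8%. NAP1, a chaperone of H2A and H2B, had 2520 and 3612 in S. mikatae homozygotes, against 438 and 314 in S. cerevisiae, a log2 ratio of 3.02 ± 0.37 (limma adjusted p = 0.00084). Its S. mikatae allele had 2827 and 3530, against 239 and 243 on the S. cerevisiae allele, 3.71 ± 0.28 (limma adjusted p = 0.00011). RTT109, an acetyltransferase of H3, had 54.0 and 28.0 in S. mikatae homozygotes, against 224 and 228 in S. cerevisiae, -2.50 ± 0.35 (limma adjusted p = 0.0014), and its alleles had 63.9 and 23.9 for S. mikatae against 238 and 286 for S. cerevisiae, -2.70 ± 0.42 (limma adjusted p = 0.0026). HAT1, an acetyltransferase of H4, had 62.4 and 148 on the S. mikatae allele, against 985 and 1150 on the S. cerevisiae allele, -3.45 ± 0.64 (limma adjusted p = 0.0058), and its homozygote ratio of -2.65 ± 1.08 did not pass (0.095). SCM3, the chaperone of the centromeric H3 variant, had 126 and 153 on the S. bayanus allele, against 10.3 and 22.7 on the S. cerevisiae allele, 3.10 ± 0.50 (limma adjusted p = 0.0022), and a homozygote ratio of 0.89 ± 0.67 that did not pass (0.33).

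Of 16 other genes with transcripts that peak at G1/S or in S phase, 2 were higher and 1 lower in S. paradoxus homozygotes, 2 and 3 in S. mikatae, and 3 and 8 in S. bayanus. In S. bayanus homozygotes their median log2 ratio was -0.94, beside 0.01 over all genes, and 68.8% of them were called, beside 37.3%. Among alleles the counts were 1 and 0, 2 and 1, and 2 and 5, with a median of 0.14 for S. bayanus. The shares called in the other comparisons were 18.8% in S. paradoxus and 31.2% in S. mikatae homozygotes, beside 29.2 and 29.6% of all genes, and 6.25, 18.8 and 43.8% among alleles, beside 17, 26.5 and 33.8%. CLB5, an S phase cyclin, had 43.8 and 131 in S. bayanus homozygotes, against 2405 and 1665 in S. cerevisiae, a log2 ratio of -4.70 ± 0.76 (limma adjusted p = 0.0020), and 20.5 and 13.5 on the S. bayanus allele, against 238 and 270 on the S. cerevisiae allele, -3.85 ± 1.01 (limma adjusted p = 0.019). CDC21, which encodes thymidylate synthase, had 61.9 and 71.9 in S. bayanus homozygotes, against 641 and 221 in S. cerevisiae, -2.48 ± 0.74 (limma adjusted p = 0.030), and an allele ratio of -4.44 ± 0.60 (0.00087). The S. cerevisiae homozygotes mapped with the other pairs of genomes varied widely for CDC21, at 243, 113, 504 and 2162, all above S. bayanus. CLB6, the other S phase cyclin, had 68.6 and 84.9 in S. mikatae homozygotes, against 1391 and 1763 in S. cerevisiae, -4.34 ± 0.42 (limma adjusted p = 0.00026), and an allele ratio of -2.05 ± 1.05 that did not pass (0.18). POL30, the sliding clamp of DNA polymerase, had 1308 and 1436 in S. mikatae homozygotes, against 190 and 143 in S. cerevisiae, 3.05 ± 0.52 (limma adjusted p = 0.0033), and its S. mikatae allele had 1017 and 944, against 170 and 146 on the S. cerevisiae allele, 2.63 ± 0.37 (limma adjusted p = 0.0019). The part of these genes, and of the growth state of the cultures, in the histone values was not tested.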

How the data were processed

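RNA was measured in 18 libraries by strand-specific 3′-end RNA-seq with 36-base paired reads. The authors trimmed poly-A stretches, mapped reads to both genomes of a species pair with Bowtie 0.12.7 (the submitters' processing notes also name CASAVA 1.7), kept reads with 1 hit in the pair of genomes, which discards reads that gene copies or species share, weighted reads for GC content per lane, and summed the weights from 50 bases before to 500 bases after each coding sequence. The deposited values are such weighted sums rounded to whole numbers, treated here as a score and not as counts, so no counting interval is given. The genome build is not named in the files; coordinates are RefSeq R64.

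Scaled values are scores divided by the upper-quartile (75%) factor of each column. limma 3.58.1 in R 4.3.3 was fitted with an intensity trend to log2(scaled value + 1) for genes whose mean reached 10: 12 homozygote libraries in 6 groups, 12 allele columns in 6 groups, and all 24 columns in 12 groups for the difference of ratios, two-sided, with Benjamini-Hochberg adjustment over all genes tested. The S. cerevisiae homozygotes mapped with each pair of genomes were taken from the deposited tables. Cultures are named biological replicates in the study's methods. The alleles of a hybrid were read from the same library, which pairs them; the correlation of their deviations from the group means was 0.059, 0.015 and 0.030 for S. paradoxus, S. mikatae and S. bayanus over 4602 genes. The fits were tested on simulated data with the same spread for all genes and 200 genes changed. There the ratio fits recovered 8 to 20% of log2 changes of 1 and 80 to 90% of log2 changes of 2. For the difference of ratios these shares were 1 to 3% and 18 to 39%, so most such changes were missed. In the real data the spread differed among genes, and the ratio fits called 774 to 1715 genes. The simulated shares need not hold for them.

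Alternatives were median-of-ratios scaling, an added constant of 4, no filter, a fit for each pair of species, all 6 S. cerevisiae homozygotes as reference, blocks, 1 factor for both alleles, and each library left out. The genes, the 3 lists of related genes and the tests were chosen with earlier results of these data known. Named were all listed histone genes, SPT10, and per list at most 4 genes called in at least 1 comparison with the same sign in homozygotes and alleles of a species, by largest change, plus the 5 genes of most similar profile. Of the lists, SWI4, CAC2, CSE4, SPT6 and VPS75 were not analysed here. Figures were drawn with matplotlib 3.10.9.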

Additional observations from a re-analysis of the deposited data

Results flagged for a closer look

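Among the 6 S. cerevisiae homozygotes, the highest library stood apart for 3 of the 8 histone genes, by a gap above 0.625 of the range. Chance flags about 1 in 20 groups of normally distributed values. That rate need not hold for scaled values without a log, and the 8 genes share the same libraries. HTB1 had 3339 in replicate 2, a gap of 0.793 of the range of the 6 values, and HHT1 had 3190 in the same library, a gap of 0.682. HHO1 had 1019 in replicate 6, a gap of 0.707.

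The ratio to S. cerevisiae differed between species in 8 of 48 contrasts of histone genes, each tested in limma with adjustment over all genes. In homozygotes the S. bayanus ratio of HHT1 minus that of S. paradoxus was -2.63 and minus that of S. mikatae -3.78 (limma adjusted p = 0.0092 and 0.0028), and for HHF1 the S. bayanus ratio minus that of S. paradoxus was -2.40 (0.020). Between alleles the S. bayanus ratio minus that of S. paradoxus was 1.93 for HTA1, 1.77 for HTA2 and -2.76 for HHT1 (limma adjusted p = 0.033, 0.022 and 0.0034), and minus that of S. mikatae -3.14 for HHT1 and -2.69 for HHO1 (0.0018 and 0.042). Over all genes, 27.9% and 21.3% were called in the S. bayanus contrasts with S. paradoxus and S. mikatae in homozygotes, and 18.2% and 19% between alleles. The S. mikatae contrasts with S. paradoxus called 15% of all genes in homozygotes and 10.9% between alleles, and 0 histone genes; at an unadjusted p under 0.05 in limma these were 0 histone genes in homozygotes and 2 between alleles.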

How the results depend on the processing

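Of 300 values of single genes under the alternatives other than leaving out a library, 279 kept their direction and their side of the threshold. Of the rest, 11 lost the call, 7 gained it and 3 changed sign, and the causes were not tested. Differences of ratios entered these counts only for HTA2 in S. paradoxus and for HTA1, HHT1 and HHF1 in S. bayanus. Outside these counts, median-of-ratios scaling turned the difference of HHT1 in S. paradoxus from -0.055 to 0.15. It turned that of HTZ1 in S. mikatae from -0.04 to 0.08. A fit for each pair of species called 0 histone genes in S. paradoxus homozygotes and 0 on the S. paradoxus and S. mikatae alleles, against 1, 1 and 2 in the joint fits. All 6 S. cerevisiae homozygotes as reference gave 2 calls in S. paradoxus and 2 in S. mikatae homozygotes, against 1 and 1. The S. mikatae calls were then HTA2 and HTZ1 in place of HHT1, and HHO1 passed in S. bayanus homozygotes. The same reference turned S. mikatae HTA1 to -0.24 and HTB1 to -0.12, and the difference of ratios of HHT1 in S. bayanus to -0.37. With library as a replicate block the S. paradoxus allele had 2 calls and the S. mikatae allele 0, and no other histone call changed. The replicate number of the homozygotes as a block left 1 call in S. paradoxus. Replicate differences correlated at 0.014 there, beside 0.015 to 0.059 for alleles of 1 library, so a shared source cannot be judged from them. With 1 scaling factor for both alleles the S. mikatae allele had 0 calls. Median-of-ratios scaling gave 1 call for the difference of ratios in S. paradoxus, and moved the median over all genes to -0.01 from -0.20 in S. paradoxus and to 0.02 from -0.14 in S. mikatae homozygotes.

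With each library left out in turn the calls ranged from 0 to 0 in S. paradoxus, 0 to 1 in S. mikatae and 1 to 2 in S. bayanus homozygotes, from 1 to 1, 0 to 1 and 1 to 1 on their alleles, and were 0 for the differences of ratios. Of 168 such values, 120 kept direction and side, 24 lost the call, 1 gained it and 23 changed sign. In S. mikatae homozygotes the gene called with a library left out was HHO1 and never HHT1, and the sign of HHO1 depended on the library. Log2 ratios that changed sign spanned, in S. paradoxus homozygotes, -0.85 to 0.89 (HTB2) and -0.40 to 0.68 (HHT1). They spanned -0.10 to 0.19 (HTA1), -0.86 to 1.18 (HTB1), -0.77 to 0.13 (HHF1) and -1.51 to 3.29 (HHO1) in S. mikatae homozygotes. They spanned -0.049 to 0.78 (HTB2) in S. bayanus homozygotes. On alleles they spanned -0.94 to 1.19 (HTB1), -0.23 to 0.62 (HHT1) and -0.68 to 0.98 (HHO1) for S. paradoxus, -1.24 to 0.15 (HTB1) and -0.046 to 1.27 (HHO1) for S. mikatae, and -0.62 to 0.069 (HTA2) and -0.11 to 0.042 (HTB2) for S. bayanus. Among the 168 values, differences of ratios were covered only for HTA2 in S. paradoxus and for HTA1, HHT1 and HHF1 in S. bayanus. Of these, the S. bayanus differences of HHT1 and HHF1 changed sign and spanned -0.15 to 0.30 (HHT1) and -0.20 to 0.63 (HHF1). Sign changes of the other differences of ratios were not counted here.

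Calls over all genes also moved. A fit for each pair gave 900 against 1363 calls in S. mikatae homozygotes, 224 against 774 and 719 against 1209 on the S. paradoxus and S. mikatae alleles, and 38 against 328, 5 against 100 and 84 against 129 for the differences of ratios in S. paradoxus, S. mikatae and S. bayanus. Library as a block gave 502 against 774 on the S. paradoxus allele, and all 6 S. cerevisiae homozygotes gave 69 against 328 for the difference in S. paradoxus. Leaving out 1 library gave as few as 749, 876 and 1113 calls in S. paradoxus, S. mikatae and S. bayanus homozygotes and 298, 480 and 598 on their alleles, and 154, 39 and 57 for the differences.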
